A study of Sus scrofa with 12 samples.

Results

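Acetylcholine is made in nerve endings from choline and acetyl-CoA by choline acetyltransferase, packed into vesicles by the vesicular acetylcholine transporter and cleaved after release by acetylcholinesterase, and the choline set free is taken up again by a high-affinity transporter. It acts on muscarinic receptors, which couple to G proteins, and on nicotinic receptors, which are ion channels built from several subunits. The M1, M3 and M5 receptors couple mainly to Gq and phospholipase C, and the M2 and M4 receptors mainly to Gi and Go, which lower cyclic AMP and open potassium channels. In the hypothalamus, acetylcholine takes part in the control of feeding, body temperature and hormone release.

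The genes described here are the muscarinic receptors CHRM1 to CHRM5 and 4 genes that make, pack, recover or cleave acetylcholine, namely CHAT, SLC18A3, SLC5A7 and ACHE. The rule took them by gene name and used no measured value, though it was set with earlier results of these data known. Of these 9 genes, 8 had rows in the mRNA table under that name, with 11 transcripts, among 19256 genes and 47559 transcripts in all. CHRM1 was not analysed here. The level of a gene is the sum of the TPM of its transcripts, where TPM is an abundance scaled for transcript length and for the total of the library.

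RNA was sequenced from the hypothalamus of 3 germ-free (GF) Bama piglets, which had no gut microbiota, and of 3 piglets colonized with gut microbiota (CG), given donor feces by gavage from day 3 to day 7 of life. All were delivered germ-free by hysterectomy from 1 sow and reared in sterile isolators, and the labels give each pig as male and 45 days old, while the paper states a slightly younger age. The paper describes RNA from only a part of each hypothalamus and does not say which pigs shared an isolator, so isolator and group cannot be told apart. Each group has 3 long RNA libraries, with replicate numbers from the labels. Where 3 values are given for a group, they stand in the order of replicates 1, 2 and 3.

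Several libraries stood apart or went against their labels. The summed TPM of 22 hypothalamus markers was 74.75 in GF replicate 1 and 1109 to 2677 in the other libraries. The oxytocin gene OXT stood at 0.14 TPM in GF replicate 1 and by itself at 582 to 1836 TPM in the other libraries. The melanin-concentrating hormone gene PMCH stood at 0 in GF replicate 1 and at 33.4 to 363 TPM elsewhere. TRH stood at 7.91 TPM there and at 44.8 to 101 TPM elsewhere. Other hypothalamus markers made up most of the sum of GF replicate 1. The sum of 15 thalamus markers was 1731 and 1472 TPM in GF replicates 1 and 3, against 244 TPM in GF replicate 2 and 303 to 358 TPM in CG pigs. GF replicate 2 had the lowest sum of neuron markers (10 genes), at 1825 TPM against 2277 to 2869 TPM elsewhere. It had the highest sum of oligodendrocyte markers (7 genes), at 18768 TPM against 6513 to 13046 TPM elsewhere. The part of this makeup in the levels of GF replicate 2 given below was not tested. Anterior pituitary markers (8 genes) added up to 5437 TPM in CG replicate 3, 261 and 24.48 TPM in CG replicates 1 and 2, and 2.40 to 13.33 TPM in GF pigs. The Y-linked genes ZFY and KDM5D together reached 17.18 TPM in CG replicate 1 and 19.51 TPM in CG replicate 2, and 0.04 TPM or less in the other 4 libraries, which goes against the label male. In the GF pigs, red blood cell markers (5 genes) summed to 611, 1196 and 426 TPM. The CG sums were 9.77 to 19.5 TPM. The globin gene HBB held nearly all of this contrast. Its GF levels were 601, 1172 and 420 TPM, and its CG levels were 10.03, 3.03 and 5.56 TPM. ALAS2, also on this list, overlapped, with GF levels of 6.48, 13.29 and 4.05 TPM and CG levels of 7.46, 5.0 and 7.87 TPM. HBM was low but without overlap, with GF levels of 0.91 to 6.73 TPM and CG levels of 0 to 0.7 TPM. Read depth cannot be had from TPM and is unknown here.

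In the comparison of GF with CG pigs, CHRM5, the M5 muscarinic receptor, was lower in GF pigs, and it was the only one to pass of the 6 tested among the receptors and the genes that make, pack, recover or cleave acetylcholine. It stood at 1.33, 4.35 and 4.39 TPM in the GF pigs, against 28.8, 25.3 and 15.2 TPM in the CG pigs. No level of a GF pig reached that of any CG pig, and the lowest CG level was that of the library with high pituitary markers. The mean was 3.36 ± 1.76 TPM for GF and 23.1 ± 7.07 TPM for CG (SD, n = 3 each), so the CG mean was 6.87 times the GF mean. The log2 fold change of TPM + 1, GF over CG, was -2.52 (standard error 0.39, 95% interval -3.42 to -1.62, limma adjusted p = 0.0293). All 14641 tested genes had a median of -0.23, so this fall was larger than the general shift toward lower values in GF pigs. Genes of mitochondrial DNA held 17.8% of the summed TPM in each GF library and 8.2% to 11.8% in the CG libraries. With these genes left out of the scaling, the median was -0.14 and the log2 fold change of CHRM5 was -2.53.

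Of the 9 genes, 6 reached the filter, which asks for 1 TPM or more in 3 or more libraries, and so entered the test. CHRM5 was called lower, which takes an adjusted p under 0.05 together with a log2 change of 1 or more in size, as were 2.42% of all tested genes, and none was called higher, against 0.471% of all tested genes. CHRM5 was also the only one of the 6 without overlap between the groups, a pattern with GF lower that 32.8% of all tested genes showed. In either direction, 6.01% of all tested genes passed, 2.89% were called and 38.2% had groups without overlap. In bulk tissue, fewer cells of a type and less RNA per cell cannot be told apart.

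The CHRM5 difference had 1 direction in every fit, but its call was lost in most fits with 1 library left out. Leaving out GF replicate 1 or 3 gave an adjusted p of 0.0531 or 0.0695, and leaving out CG replicate 1, 2 or 3 gave 0.117, 0.145 or 0.0541, with log2 fold changes of -2.12 to -2.78. The adjusted p was 0.0283 when GF replicate 2 was left out. In the fits that lost the call, the unadjusted limma p of CHRM5 was 0.000218 to 0.0015, beside 0.000259 in the main fit. The adjusted p depends on all tested genes, of which 22 to 54 were called in those fits and 423 in the main fit. With GF replicate 1 and CG replicate 3 both left out, the log2 fold change was -2.38 (limma adjusted p = 0.032). With CG replicates 1 and 2, the libraries with Y-linked expression, both left out, it was -1.99 (limma adjusted p = 0.214), a fit in which the lone CG library, high in pituitary markers, is assumed to vary like the GF libraries. The part of regional composition, of blood and of sex in the difference was not tested.

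CHRM5 has 1 transcript in the table (ENSSSCG00000036662) and lies on chromosome 7 from 80423768 to 80429187 in Sscrofa11.1, as annotated by RefSeq. No other annotated gene overlaps it there, and the nearest, a lncRNA gene, ends 6151 bases away.

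**Figure D1:**
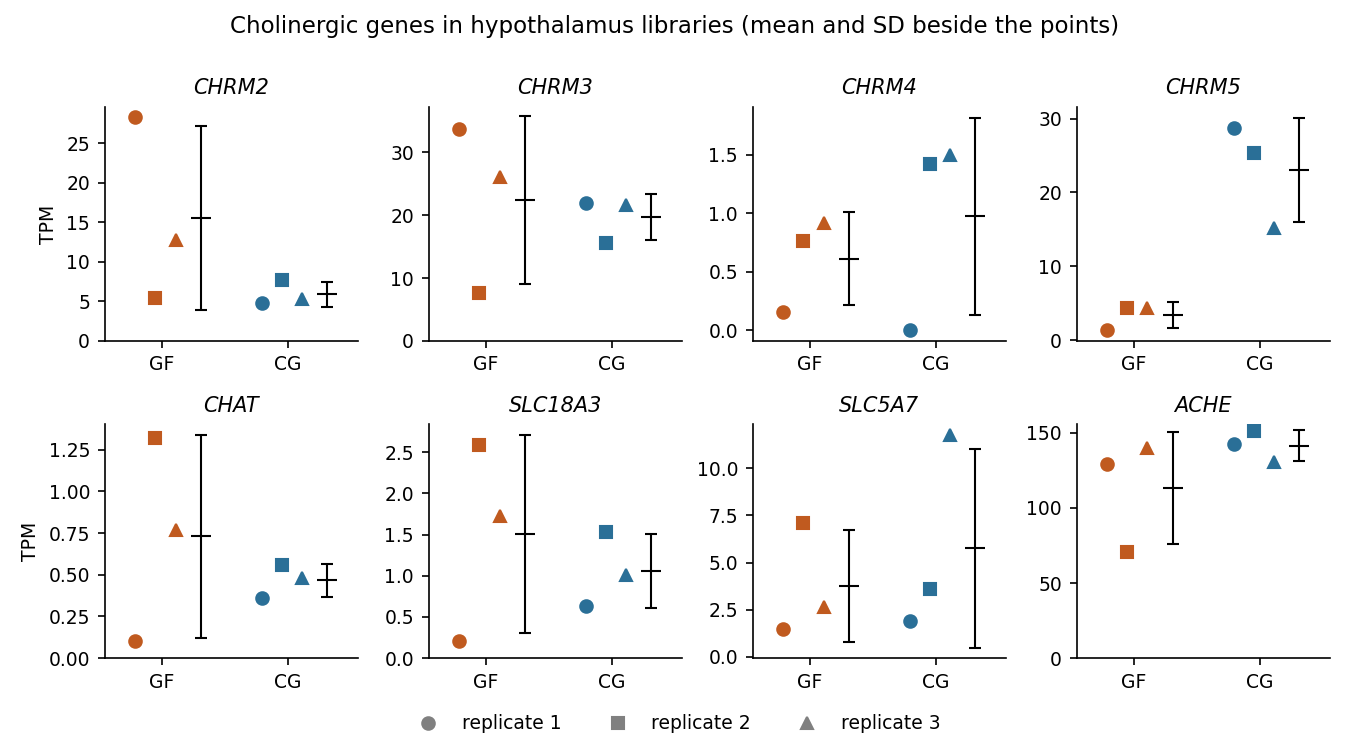
TPM (y axis, a scale of its own in each panel) of the 8 measured cholinergic genes in 3 GF and 3 CG libraries, with 1 symbol per replicate and the mean and SD (n = 3) beside the points. CHRM5 is the panel in which the groups do not overlap, with 1.33 to 4.39 TPM in GF and 15.2 to 28.8 TPM in CG pigs.

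CHRM2, the M2 receptor, which in other mammals acts in part as an inhibitory autoreceptor on cholinergic endings, differed between GF libraries more than between the groups. It stood at 28.4, 5.47 and 12.8 TPM in the GF pigs, against 4.78, 7.69 and 5.26 TPM in the CG pigs. GF replicates 1 and 3 lay above all CG pigs, and GF replicate 2 lay among them. CHRM2 had a log2 fold change of 1.02 and did not pass (standard error 0.50, 95% interval -0.16 to 2.20, limma adjusted p = 0.213), except without GF replicate 2 (1.57, limma adjusted p = 0.0488). The GF libraries that were high in CHRM2 were those with 1731 and 1472 TPM of thalamus markers, and the part of these in the CHRM2 level was not tested.

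CHRM3, the M3 receptor, stood at 33.6, 7.63 and 26.0 TPM in the GF pigs, against 22.0, 15.5 and 21.6 TPM in the CG pigs. The CG libraries fell inside the range of the GF libraries, where GF replicate 2 was again the lowest. CHRM3 had a log2 fold change of -0.03 (95% interval -1.17 to 1.11, limma adjusted p = 0.975), and its sign turned with the scaling of the libraries, to 0.06 with the mitochondrial genes taken out and 0.21 with median-centred libraries. This interval is wide and does not show that the groups were alike.

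CHRM4, the M4 receptor, which is abundant in the striatum of other mammals, did not reach the filter. It stood at 0.16, 0.76 and 0.92 TPM in the GF pigs, against 0, 1.42 and 1.5 TPM in the CG pigs, with overlap (two-sided exact permutation test of the means, p = 0.6, where 3 pigs against 3 cannot give less than 0.10). Its annotated end overlaps the growth factor gene MDK by 294 bases on chromosome 2, and the sources used here do not settle whether counting used strand.

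The order of the muscarinic receptors was not the same in the groups. In CG pigs CHRM5, at 15.2 to 28.8 TPM, and CHRM3, at 15.5 to 22.0 TPM, overlapped, with CHRM2 below both at 4.78 to 7.69 TPM and CHRM4 last. In GF pigs CHRM3, at 7.63 to 33.6 TPM, and CHRM2, at 5.47 to 28.4 TPM, overlapped, and CHRM5 lay below both. CHRM5 held 51.8%, 50.6% and 34.8% of the summed TPM of the 4 measured receptors in CG replicates 1, 2 and 3, and 2.1%, 23.9% and 9.9% in GF replicates 1, 2 and 3. CHRM2 held 8.6% to 15.4% of the sum in CG pigs and 29.0% to 44.7% in GF pigs. The sum itself overlapped, at 43.5 to 55.5 TPM in CG pigs and 63.5, 18.2 and 44.1 TPM in GF pigs. These shares are descriptive and were not tested, and CHRM1 is not part of them.

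**Figure D2:**
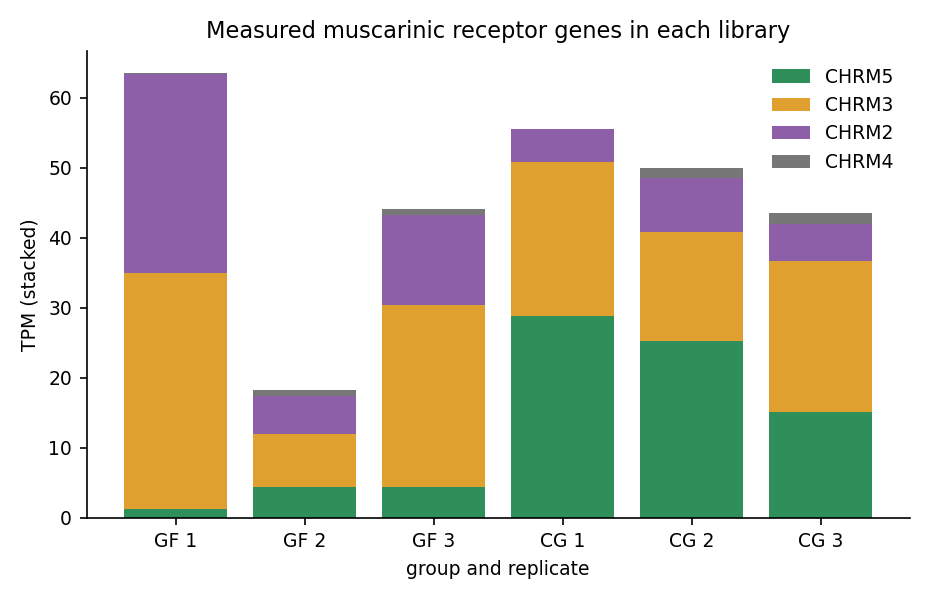
TPM of CHRM5, CHRM3, CHRM2 and CHRM4 stacked for each of the 3 GF and 3 CG libraries (y axis, linear). CHRM5 makes up 34.8% to 51.8% of the column in CG pigs and 2.1% to 23.9% in GF pigs, and the whole column is lowest in GF replicate 2, at 18.2 TPM.

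CHAT, choline acetyltransferase, and SLC18A3, the vesicular acetylcholine transporter, define cholinergic neurons, and both stood low in every library. CHAT stood at 0.10, 1.32 and 0.77 TPM in the GF pigs, against 0.36, 0.56 and 0.48 TPM in the CG pigs. It exceeded 1 TPM in GF replicate 2 only and was not tested by limma (two-sided exact permutation test, p = 0.6). SLC18A3 stood at 0.21, 2.59 and 1.73 TPM in the GF pigs, against 0.63, 1.53 and 1.01 TPM in the CG pigs. For both genes the CG libraries lay inside the range of the GF libraries. SLC18A3 had a log2 fold change of 0.17 (95% interval -0.79 to 1.13, limma adjusted p = 0.809).

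The CHAT and SLC18A3 genes form the cholinergic locus, in which other mammals carry the transporter gene within the first intron of CHAT. In the RefSeq annotation of Sscrofa11.1, SLC18A3 lies on chromosome 14 from 90113534 to 90115813 and CHAT begins 1650 bases on, at 90117464. All 6 libraries held the same rank for both genes, from GF replicate 1 as the lowest, through CG replicates 1, 3 and 2, to GF replicates 3 and 2.

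SLC5A7, the high-affinity choline transporter of cholinergic endings, stood at 1.5, 7.10 and 2.65 TPM in the GF pigs, against 1.91, 3.61 and 11.8 TPM in the CG pigs. Its highest level was in CG replicate 3, the library with high pituitary markers, where CHAT stood at 0.48 TPM. The log2 fold change of -0.40 did not pass (95% interval -1.84 to 1.03, limma adjusted p = 0.69), and it was 0.20 without CG replicate 3 and 0.57 without GF replicate 1 and CG replicate 3. One of its transcripts, ENSSSCT00000008917, held 78.0% to 93.1% of the SLC5A7 level. The part of pituitary tissue in the level of CG replicate 3 was not tested.

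ACHE, acetylcholinesterase, was the most abundant of these genes by TPM and stood above 93.1% of all tested genes by mean level. It stood at 129, 70.4 and 140 TPM in the GF pigs, against 142, 151 and 130 TPM in the CG pigs. GF replicate 2, the library with the lowest sum of neuron markers, lay far below the rest, and GF replicate 3 lay inside the CG range. With a log2 fold change of -0.38, ACHE did not pass (95% interval -0.97 to 0.22, limma adjusted p = 0.348) and was -0.07 without GF replicate 2.

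The ACHE level was the sum of 3 transcripts. ENSSSCT00000058868 held 66.4% to 77.1% of it in CG pigs and 55.2% to 65.8% in GF pigs. These shares nearly met and were not tested, and how often transcript shares of other genes part the groups was not counted. The level of ENSSSCT00000058868 was 71.3, 39.6 and 91.9 TPM in GF pigs and 94.8, 116 and 86.5 TPM in CG pigs. In a fit over transcripts its log2 fold change of -0.62 did not pass (limma adjusted p = 0.218). A lncRNA gene that RefSeq annotates over 936 bases of ACHE, on chromosome 3, had a transcript at 1.16, 1.25 and 2.17 TPM in the GF pigs, against 3.33, 2.98 and 4.39 TPM in the CG pigs. That transcript fell in GF pigs (log2 fold change -0.86, limma adjusted p = 0.0474). In either direction, 25.8% of the 2388 tested lncRNA transcripts passed, and the share with GF lower alone was not counted. The second transcript of that gene did not pass (-0.20, limma adjusted p = 0.502). As for CHRM4 and MDK, the sources used here do not settle whether counting used strand where these genes overlap. The lncRNA was looked at after the mRNA values were seen, and its fit was not repeated with libraries left out.

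The CHRM2 gene, on chromosome 18 from 12455139 to 12600314, spans the annotated microRNA gene MIR490-1, from 12568196 to 12568274. Both mature arms of miR-490 were measured in separate small RNA libraries with the same replicate numbers, as reads scaled to the same total of mapped microRNA reads (RPM). The names of the arms carry no locus, and whether their reads come from this gene was not checked. The 5p arm, miR-490-5p, was higher in GF pigs, at 11.5, 7.19 and 10.03 RPM in the GF pigs, against 4.16, 4.04 and 3.12 RPM in the CG pigs. The groups did not overlap, and the log2 fold change of RPM + 1 was 1.13 (standard error 0.21, limma adjusted p = 0.0194), where 6.13% of 326 tested microRNAs passed with GF higher. How often other microRNAs had groups without overlap was not counted, and 111 of the 326 had an unadjusted limma p under 0.05. The call was lost without CG replicate 1, 2 or 3 (limma adjusted p of 0.0693, 0.0726 and 0.0677).

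The far more abundant 3p arm, miR-490-3p, stood at 207, 93.9 and 140 RPM in the GF pigs, against 175, 189 and 144 RPM in the CG pigs, with overlap (log2 fold change -0.27, limma adjusted p = 0.575). Within the GF group, CHRM2 and both arms were highest in replicate 1 and lowest in replicate 2. Within the CG group their orders differed. CHRM2 was highest in replicate 2 and lowest in replicate 1, miR-490-3p highest in replicate 2 and lowest in replicate 3, and miR-490-5p highest in replicate 1 and lowest in replicate 3. The mean of miR-490-3p was 170 ± 22.9 RPM in CG pigs and 147 ± 57.0 RPM in GF pigs (SD, n = 3). The values of miR-490-5p rest on 127, 84 and 94 reads in GF pigs and 84, 67 and 59 reads in CG pigs, as counted from the smallest step of the RPM. By the same step, total reads were 9367649 to 11688022 in the GF libraries and 16604797 to 20172822 in the CG libraries. The part of these totals in the RPM difference was not tested. The microRNA was looked at because MIR490-1 lies in CHRM2, after the mRNA values were seen.

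**Figure D3:**
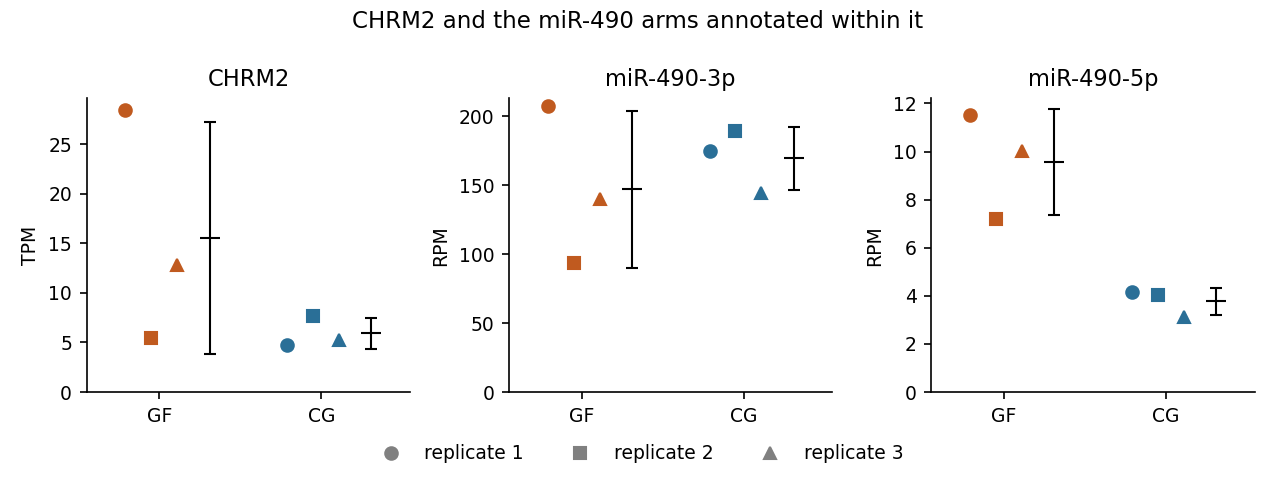
CHRM2 in TPM (left) and miR-490-3p and miR-490-5p in RPM (middle and right) in 3 GF and 3 CG libraries each, with 1 symbol per replicate number and the mean and SD (n = 3) beside the points. Of the microRNA arms, miR-490-5p has groups that do not overlap, at 7.19 to 11.5 RPM in GF and 3.12 to 4.16 RPM in CG pigs.

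Of 16 nicotinic receptor subunit genes, 15 were in the table and 7 were tested, and 0 passed in limma. Among the 7, CHRNA4 and CHRNA7 had an unadjusted p under 0.05, as 30.9% of all tested genes had. The alpha 4 subunit CHRNA4, which forms the main high-affinity receptor of the brain with the beta 2 subunit, stood at 104, 8.34 and 53.2 TPM in the GF pigs, against 6.11, 5.05 and 5.15 TPM in the CG pigs, without overlap (log2 fold change 2.55, limma adjusted p = 0.0826), a pattern that 5.42% of all tested genes showed with GF higher. Its level was high in the same GF replicates 1 and 3 as CHRM2 and the thalamus markers, and its log2 fold change was 1.81 without GF replicate 1 (limma adjusted p = 0.174), 2.28 without GF replicate 3 (limma adjusted p = 0.175) and 3.55 without GF replicate 2 (limma adjusted p = 0.0072). CHRNA7, the subunit of homomeric receptors, stood at 6.84, 8.36 and 11.3 TPM in the GF pigs, against 16.3, 17.0 and 15.5 TPM in the CG pigs, without overlap (log2 fold change -0.84, limma adjusted p = 0.0533).

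The partner subunit CHRNB2 stood at 119, 37.2 and 85.5 TPM in the GF pigs, against 62.1 to 67.6 TPM in the CG pigs, and CHRNB1 had a log2 fold change of -0.21 (limma adjusted p = 0.436). Below the filter, CHRNA5 stood at 7.12 TPM in GF replicate 1 and at 0.11 to 0.69 TPM elsewhere. The 7 tested subunits had a median log2 fold change of -0.09, beside -0.23 over all tested genes.

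Among 5 tested chaperones and prototoxins of nicotinic receptors, 1 fell in GF pigs and 4 did not pass, beside 4.93% of all tested genes that passed with GF lower. TMEM35A, a chaperone that helps nicotinic receptors assemble, fell from 88.7 ± 12.9 TPM in CG pigs to 51.1 ± 8.94 TPM in GF pigs (SD, n = 3), with 44.8, 47.3 and 61.4 TPM in GF pigs and 74.5, 99.8 and 91.9 TPM in CG pigs. The groups did not overlap, the log2 fold change was -0.79 (limma adjusted p = 0.0469), and the call was lost whichever library was left out, with an adjusted p of 0.0571 to 0.163. The prototoxins LYPD1 (-0.52, limma adjusted p = 0.138) and LYPD6B (-0.53, limma adjusted p = 0.166) did not pass, and the median of the 5 genes was -0.52.

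Of 8 tested genes of choline supply and acetylcholine breakdown, 0 passed in limma and 1 had an unadjusted p under 0.05, beside 30.9% of all tested genes. This was CHKA, choline kinase alpha, with a log2 fold change of -0.46 (limma adjusted p = 0.0712). The choline transporter-like genes SLC44A3 (-0.60, limma adjusted p = 0.202) and SLC44A2 (-0.26, limma adjusted p = 0.241) did not pass, and the median of the 8 genes was -0.04.

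All 19 genes of muscarinic signalling were tested, of which 1 rose, 1 fell and 17 did not pass, beside 1.08% and 4.93% of all tested genes. KCNQ5, a subunit of the M-type potassium channel that muscarinic receptors close, fell from 20.5, 22.5 and 15.1 TPM in CG pigs to 5.35, 10.1 and 9.17 TPM in GF pigs (log2 fold change -1.17, limma adjusted p = 0.0478). KCNQ3, another subunit of such channels, did not pass (0.17, limma adjusted p = 0.803). GNAI1, an inhibitory G protein alpha subunit, rose from 60.1, 63.7 and 67.5 TPM in CG pigs to 100, 106 and 92.9 TPM in GF pigs (log2 fold change 0.63, limma adjusted p = 0.0368).

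The difference in GNAI1 lay in 1 of its 4 transcripts, ENSSSCT00000069487, at 37.3, 43.2 and 32.1 TPM in the GF pigs, against 4.42, 4.48 and 5.72 TPM in the CG pigs, while its most abundant transcript, ENSSSCT00000082569, stood at 52.6 to 57.1 TPM and 50.5 to 55.7 TPM. Both KCNQ5 and GNAI1 passed without GF replicate 2 and missed the threshold without any other library. PLCB1, the phospholipase C beta 1 on which Gq acts, stood at 44.7, 19.8 and 68.7 TPM in the GF pigs, against 18.8 to 20.9 TPM in the CG pigs (0.98, limma adjusted p = 0.145), with GF replicates 1 and 3 again above the rest. The median of the 19 genes was -0.07.

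Of 5 tested regulators of cholinergic neurons, ISL1 fell and 4 did not pass, beside 4.93% of all tested genes that passed with GF lower. ISL1, a LIM homeobox factor of cholinergic and of arcuate neurons, stood at 3.82, 5.68 and 4.61 TPM in the GF pigs, against 14.2, 20.9 and 27.0 TPM in the CG pigs (log2 fold change -1.90, limma adjusted p = 0.0258). The groups did not overlap, as with GF lower in 32.8% of all tested genes, and ISL1 missed the threshold without GF replicate 1 (0.0598), GF replicate 3 (0.0715), CG replicate 2 (0.133) or CG replicate 3 (0.0544). The basal forebrain factor LHX8 stood at 0, 3.58 and 1.36 TPM in the GF pigs, against 0.16, 1 and 0.09 TPM in the CG pigs (0.70, limma adjusted p = 0.412). NGFR, the p75 neurotrophin receptor of basal forebrain cholinergic neurons, stood at 0.93, 3.21 and 1.05 TPM in the GF pigs, against 4.95, 7.12 and 32.2 TPM in the CG pigs, without overlap (-2.20, limma adjusted p = 0.0767), and was highest in CG replicate 3, without which its log2 fold change was -1.44 (limma adjusted p = 0.0991). ZIC4, a zinc finger factor, stood at 22.8, 6.29 and 18.7 TPM in the GF pigs, against 6.06, 11.8 and 7.40 TPM in the CG pigs, and did not pass (0.72, limma adjusted p = 0.318), and the median of the 5 genes was 0.51.

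**Figure D4:**
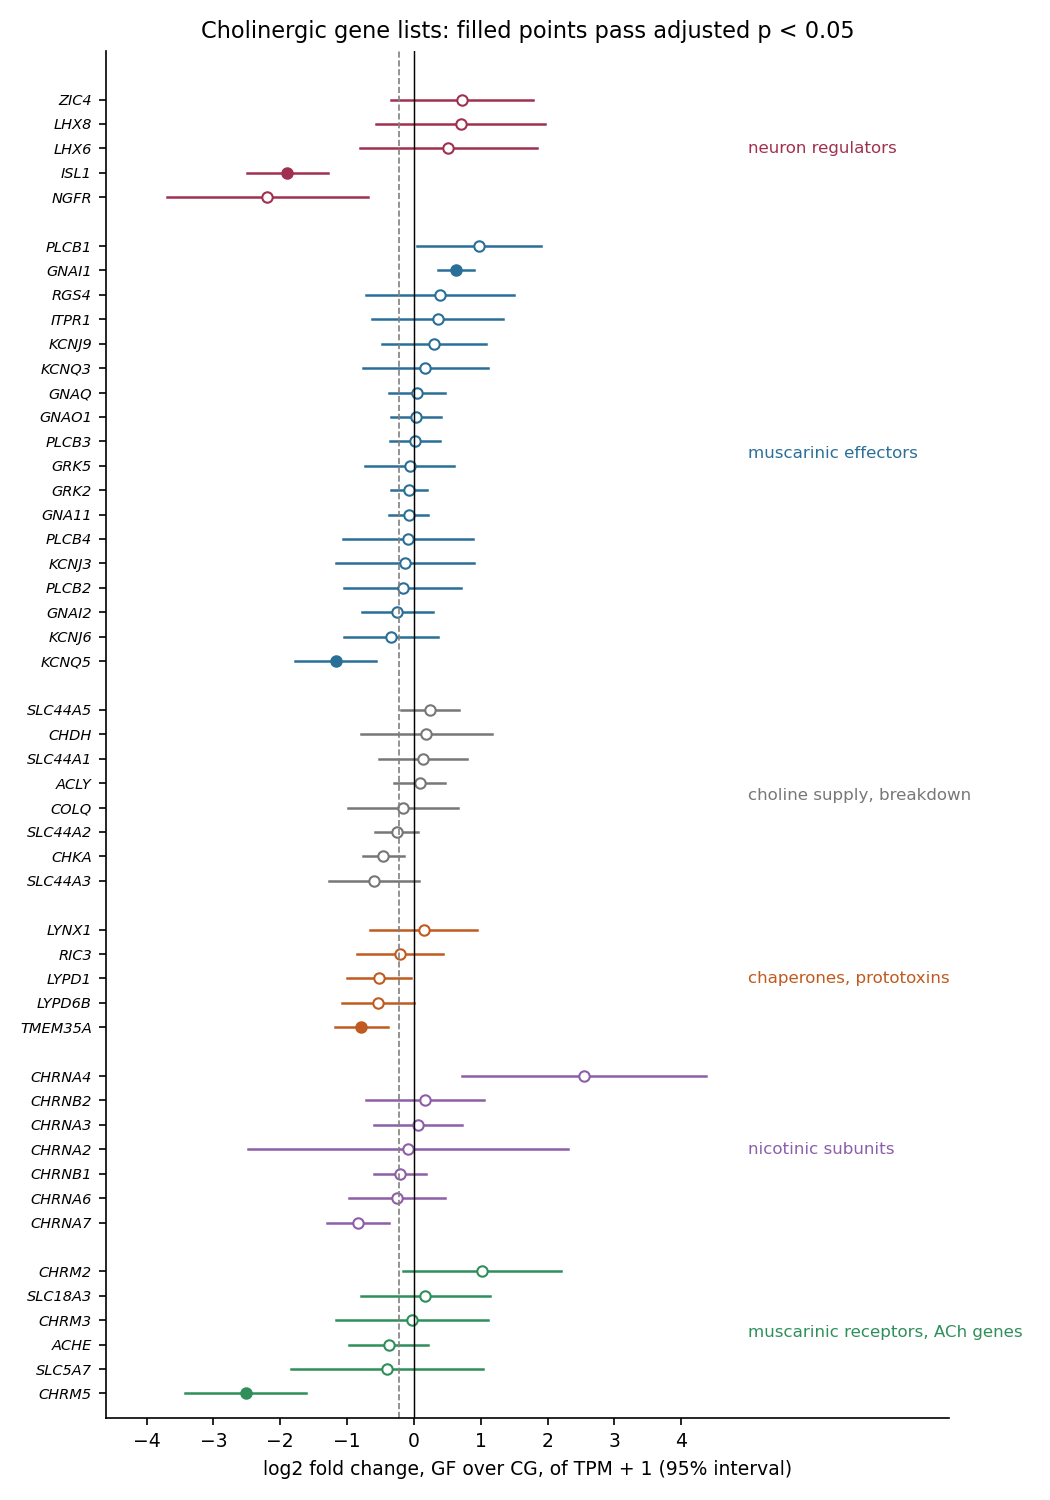
Log2 fold change of TPM + 1, GF over CG (x axis), with its 95% interval, for tested genes of 6 cholinergic lists (y axis, 1 gene per line, all but 1 shown); filled points have a limma adjusted p under 0.05 and the dashed line is the median of all tested genes, -0.23. CHRM5, TMEM35A, KCNQ5 and ISL1 lie to the left among the filled points and GNAI1 to the right, while the intervals of CHRM2 and CHRM3 include 0.

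The genes most like each tested gene were those with the highest Pearson r of log2(TPM + 1) over the 6 libraries, which share tissue makeup and scaling, and r is given as a description. For CHRM5 these were ATXN7L1 and NR2C2AP (r of 0.997 for both), and 475 tested genes with a symbol had an r above 0.95. For CHRM2 they were SYNDIG1L (0.991) and the CRH receptor gene CRHR2 (0.99), which stood at 42.5, 1.37 and 8.05 TPM in the GF pigs, against 1.08 to 2.45 TPM in the CG pigs. CHRM3 was most like GPR63 (0.995) and COX7A2 (0.988), and ACHE was most like FAM131C (0.998) and ABCA3 (0.992). SLC18A3 was most like the globin gene HBQ1 (0.983) and STYX (0.97), and SLC5A7 was most like FAM89A (0.98) and HBP1 (0.97), with 5 and 10 genes above 0.95.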

How the data were processed

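As deposited, the mRNA and lncRNA values are TPM per transcript, which the authors made from trimmed reads aligned to Sscrofa11.1. The paper names TopHat, Cufflinks and HTSeq and the labels name fastp, HISAT and RSEM. For microRNAs the deposited unit is RPM, for which the authors scaled known microRNAs to all reads that matched miRBase. The low RPM of each library lay within 0.1 of a whole number of equal steps (100.0% of 147 to 175 values). The step gives 9367649 to 11688022 reads for the GF libraries and 16604797 to 20172822 reads for the CG libraries. Summed over the mRNA table, libraries held 793723 to 845526 TPM.

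Transcript TPM were added up per gene, and log2(value + 1) was compared by limma 3.58.1 with an intensity trend in R 4.3.3, for features that reached 1 TPM or RPM in 3 or more libraries. Benjamini-Hochberg adjustment ran over all tested mRNA genes, lncRNA transcripts or microRNAs. The fit was tested on simulated data in which genes varied independently and no library stood apart. That test cannot show how the fit behaves with libraries that differ in tissue markers. Permutation tests used scipy 1.17.1, tables pandas 2.3.3, and plots matplotlib 3.10.9, in Python 3.11.15. Fold changes on the log2(TPM + 1) scale understate the change of low genes. The study's count model needs counts and was not run.

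The genes, the lists and the rule for named genes (all members, genes of each cholinergic list that passed, the 3 smallest p of each list, and the 2 genes most like each tested member) were chosen with earlier results of these data known. Genes overlapping CHRM2, CHRM4 and ACHE, transcripts of GNAI1, CHRNA5, CHRNB2, KCNQ3 and LHX8 were named after their values were seen. Alternatives were another pseudocount, other filters, other scalings, no trend, transcripts in place of genes, libraries left out and a replicate block. Nothing in the labels says that pigs of 1 number belong together. Positions are RefSeq's on Sscrofa11.1. Of the lists, 1 gene is counted but not reported here by name.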

Additional observations from a re-analysis of the deposited data

How the results depend on the processing

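The log2 fold change of CHRM5 kept its sign in all 16 alternatives and ran from -2.78 to -2.12 with 1 library left out. It lost the call with CG replicates 1 and 2 both left out (-1.99) and with the replicate block (-2.52, limma adjusted p = 0.0724), so that 0 members passed or were called in these fits. With 1 library left out, 0 to 2 members passed or were called, the second being CHRM2 without GF replicate 2. CHRM2 ran from 0.48 to 1.57, CHRM3 from -0.42 to 0.58, SLC18A3 from -0.16 to 0.63, SLC5A7 from -0.88 to 0.20 and ACHE from -0.56 to -0.07. The sign of CHRM3 turned with mitochondrial genes left out of the scaling (0.06) and with median-centred libraries (0.21), and that of SLC5A7 with GF replicate 1 and CG replicate 3 both left out (0.57). Each scaling shifts all genes together, and SLC5A7 was then fitted with fewer libraries. Without a filter, CHAT had a log2 difference of 0.17 and CHRM4 one of -0.21, and neither passed.

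Over all tested genes, 423 were called, 69 higher and 354 lower. The count was 192 without a filter, 31 with GF replicate 1 and CG replicate 3 both left out, 40 with CG replicates 1 and 2 both left out, 35 with the replicate block, 180 with mitochondrial genes left out of the scaling, 219 with median-centred libraries (122 higher and 97 lower), 1623 of 27945 transcripts in place of genes, and 22 to 717 with 1 library left out. The median over all tested genes went from -0.23 to 0.01 on the log2 scale with median-centring.

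Among the other lists, the count of chaperones and prototoxins that passed was 0, in place of 1, with a pseudocount of 0.1, without a filter, without the trend, with either scaling, with the replicate block and with either pair of libraries left out, and 0 to 0 with 1 library left out. For muscarinic signalling it was 1, in place of 2, with a pseudocount of 0.1, without a filter, with either scaling and with transcripts in place of genes, 0 with the replicate block and with either pair left out, and 0 to 4 with 1 library left out. For cholinergic neuron regulators it was 0, in place of 1, with the replicate block and with either pair left out, and 0 to 2 with 1 library left out. For nicotinic subunits it was 0 to 1 with 1 library left out. The log2 fold change of miR-490-3p ran from -0.55 to 0.02 with 1 library left out, a setting chosen for this microRNA after seeing the data. Deviations of pigs with the same number from their group means had correlations of -0.024, 0.058 and -0.01. With 3 libraries per group that differ in tissue markers, such values cannot show whether pigs of 1 number shared an isolator or a processing step. TPM of unknown depth limit what low values such as those of CHAT and CHRM4 can show.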
